A study of Mus musculus with 6 samples.

Results

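The S100 calcium-binding genes described here are the 10 genes S100a1, S100a3, S100a4, S100a6, S100a8, S100a9, S100a11, S100a13, S100a16 and S100b, chosen by gene symbol from the 40166 genes of a count table, in which all 10 were found. S100 proteins are small calcium sensors that usually work as dimers. On binding calcium through a pair of EF-hand loops they expose a surface that grips target proteins such as annexins, cytoskeletal proteins and p53, and several are also released from cells and act on receptors at the surface of other cells. S100B is used as a marker of melanoma, S100A4 and S100A6 are known from motile and dividing tumor cells, and S100A8 with S100A9 forms calprotectin, a major protein of neutrophils.

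RNA was sequenced from 6 whole tumors grown under the skin of C57BL/6 mice from YUMM3.3, a single BRAF-mutant mouse melanoma cell line, so RNA of tumor cells and of any host cells present was measured together. Vehicle mice (tumors 7, 8 and 9, by the replicate numbers of the samples) received water by oral gavage, and RGS mice (tumors 10, 11 and 12) received rigosertib, a small molecule that mimics RAS, at 300 mg/kg on 5 days a week by the same route. All tumors were described as collected after 17 days of treatment. Mice of the tumor models were 8 to 10 weeks old and of either sex, and which sex was sequenced is not given in the sources used here. The counts summed to 32555494, 26652104 and 22793087 in vehicle tumors 7, 8 and 9 and to 21617368, 13837932 and 17768758 in RGS tumors 10, 11 and 12. Every vehicle library was therefore deeper than every RGS library, so sequencing depth went along with treatment. Levels are given as CPM, the counts of a gene scaled to library size with edgeR's TMM factors, and as TPM, which also divides by gene length, where genes are compared with each other. A floor of 3 counts corresponded to between 0.0856 CPM in vehicle tumor 7 and 0.226 CPM in RGS tumor 11, for counting error only.

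Per length, the members ran from genes among the most abundant of these tumors to genes at trace levels. S100a11 had the highest TPM of the S100 genes in each of the 6 tumors, with 1747 ± 60.5 TPM with vehicle and 2692 ± 509 TPM with RGS (mean ± SD, n = 3 tumors a group, as for all such errors below), and ranked 45 of the 15355 genes tested by its mean TPM. S100a6 followed among the members with 806 ± 196 TPM with vehicle and 901 ± 265 TPM with RGS, ranks apart from S100a16 at 117 ± 17.2 and 197 ± 21.4 TPM. S100a4, S100a1 and S100a13 lay close together, at 76.3 ± 35.9, 72.2 ± 21.4 and 41.4 ± 6.59 TPM with vehicle and at 69.0 ± 31.8, 47.5 ± 10.9 and 79.6 ± 31.4 TPM with RGS. S100a13 was the lowest of them in each vehicle tumor and the highest of them in RGS tumors 10 and 12. S100a3 was lower, with 7.34 ± 2.51 TPM with vehicle and 3.44 ± 1.22 TPM with RGS. S100a8, S100a9 and S100b had mean levels of at most 1.67 TPM in either group, with at most 12, 4 and 48 counts in any tumor.

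**Figure D1:**
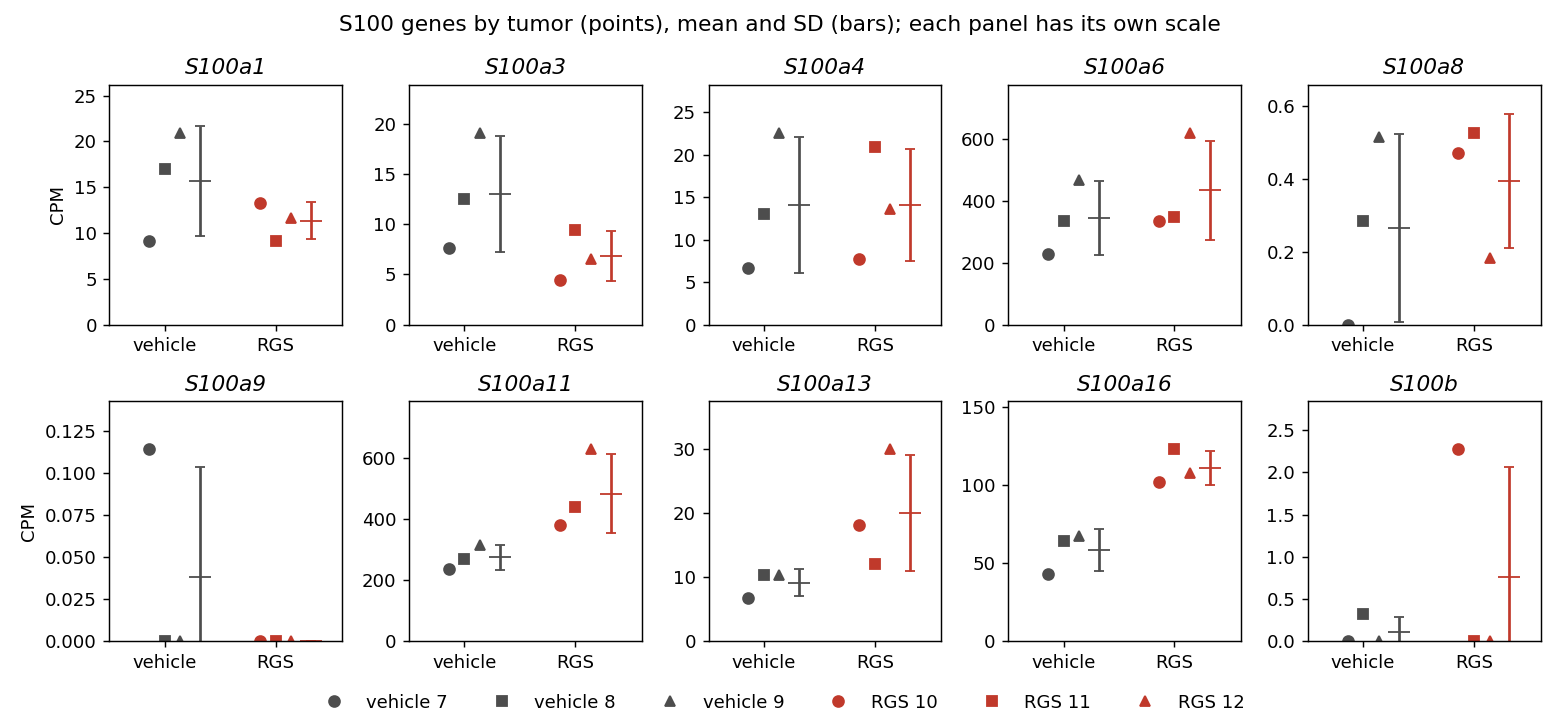
Level of each of the 10 S100 genes in CPM (vertical axes, each panel with its own scale from 0) in the 3 vehicle tumors (grey) and the 3 RGS tumors (red), with the mean and SD beside the points; SD bars are cut at 0. The RGS tumors lie above all vehicle tumors for S100a11, S100a13 and S100a16, while S100a9 and S100b have counts in 1 and 2 tumors.

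Vehicle tumor 7, the deepest library, stood apart for short genes, and most S100 genes are short. Of the 7 members with a mean of at least 1 CPM, all 7 had their lowest vehicle value in tumor 7, and 6 also had their highest in tumor 9. Over the 12239 tested genes at this level, 36.1% were lowest in tumor 7 among the vehicle tumors and 24.5% were lowest in tumor 7 and highest in tumor 9. Among the 454 such genes of at most 1000 bases these shares were 72.2% and 54.4%, and among the 10433 genes of over 2000 bases they were 30.6% and 20.1%. Short genes also differed between the groups, with a median log2 fold change of -0.28 up to 1000 bases and -0.01 over 2000 bases. Each member below is therefore also given, where it matters, with a length offset (a curve of each library's deviation on gene length taken out before the same edgeR test) or without tumor 7. The length offset was added after seeing the data. Leaving out each tumor in turn was planned, but tumor 7 was singled out after the values were seen. For all 8 tested members these alternatives move the estimate in opposite directions, up with the offset and down without tumor 7, so neither is taken as a correction. Why short genes were low in tumor 7 was not tested.

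Of the 10 members, 8 reached the filter (a median of 5 or more counts in either group), and 3 of them were higher in RGS tumors by edgeR's quasi-likelihood test (Benjamini-Hochberg adjusted p under 0.05 over 15355 genes). Over all tested genes 16.3% were called higher. None of the 8 was called lower, where 16.5% of all tested genes were. At an unadjusted edgeR p under 0.05, 3 members were higher and 1, S100a3, was lower, against 20.5% and 22.4% of all tested genes. At an adjusted p under 0.05, DESeq2 and limma voom each called 3 members higher and 0 lower. In either direction edgeR called 32.8% of all tested genes at that threshold. The groups did not overlap for 3 of the 8 members, compared with 45.8% of all tested genes. The median log2 fold change was 0.45 over the 8 members and -0.05 over all tested genes. The p-values come from the fit across all genes, since an exact permutation of 3 vehicle and 3 RGS tumors cannot give a p below 0.1.

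S100A11, which binds annexin A1 and takes part in membrane repair and growth control, is encoded by the member with the highest TPM. S100a11 (ENSMUSG00000027907.4, chr3:93520488-93526287 on GRCm38) had 237, 271 and 315 CPM in vehicle tumors 7, 8 and 9 and 382, 439 and 628 CPM in RGS tumors 10, 11 and 12. The groups did not overlap, and RGS tumor 12 was the highest. The log2 fold change was 0.82 ± 0.18 (SE) with an edgeR adjusted p of 0.00204. It was 0.56 without RGS tumor 12 (adjusted p = 0.0316), 0.72 without vehicle tumor 7 (adjusted p = 0.00116) and 1.52 with the length offset (adjusted p = 4.0e-07). In whole-tumor RNA, more RNA per cell and more cells of a type that expresses the gene cannot be told apart, for this and every gene below.

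S100A16 is a broadly expressed member that binds calcium weakly. S100a16 (ENSMUSG00000074457.10, chr3:90537254-90543151) had 43.0, 64.5 and 67.5 CPM in vehicle tumors 7, 8 and 9. It had 101.8, 122.8 and 107.4 CPM in RGS tumors 10, 11 and 12, so each RGS tumor was above each vehicle tumor and the RGS values lay close together. The log2 fold change was 0.92 ± 0.18 (SE), edgeR adjusted p = 0.00077. With each tumor left out in turn it lay between 0.74 and 1.05, with an adjusted p of at most 0.00698.

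S100A13 is known for its part in the release of proteins that lack a signal peptide, such as FGF1 and IL-1α, from cells. S100a13 (ENSMUSG00000042312.9, chr3:90514435-90524581) had 6.71, 10.4 and 10.3 CPM in vehicle tumors 7, 8 and 9 and 18.1, 12.1 and 29.9 CPM in RGS tumors 10, 11 and 12. RGS tumor 11 lay just above vehicle tumors 8 and 9, and RGS tumor 12 was well above all others. The log2 fold change was 1.14 ± 0.32 (SE), edgeR adjusted p = 0.0108. Without RGS tumor 12 it was 0.71 and no longer passed the test (adjusted p = 0.117). It was 0.96 without vehicle tumor 7 (adjusted p = 0.0296) and 1.69 with the length offset (adjusted p = 0.00012).

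S100a13 stands head to head with S100a1 (ENSMUSG00000044080.9, chr3:90511034-90514392), which lies on the opposite strand and encodes a regulator of calcium handling best known from heart and skeletal muscle. S100a1 had 9.11, 17.0 and 20.9 CPM in vehicle tumors 7, 8 and 9 and 13.3, 9.19 and 11.6 CPM in RGS tumors 10, 11 and 12. These values overlapped, and S100a1 did not pass the test (log2 fold change -0.46, 95% interval -1.11 to 0.19, edgeR adjusted p = 0.279). Its estimate was -0.73 without vehicle tumor 7 (adjusted p = 0.0592), -0.19 without vehicle tumor 9 (adjusted p = 0.747) and 0.18 with the length offset (adjusted p = 0.638). The count ratio of S100a13 to S100a1 within a tumor, chosen after the values were seen, was 0.737, 0.610 and 0.493 in vehicle tumors 7, 8 and 9 and 1.36, 1.31 and 2.57 in RGS tumors 10, 11 and 12. The pair has similar gene lengths, 715 and 694 bases, and S100a13 had fewer counts than its neighbour in every vehicle tumor and more in every RGS tumor. The RefSeq starts of the pair are 104 bases apart. Of these, the 42 bases outside both gene models of the table are shown, because neighbours in this arrangement start from a common region. It is given 5′ to 3′ on the S100a13 strand, from RefSeq on GRCm38.p6.
chr3:90514393-90514434: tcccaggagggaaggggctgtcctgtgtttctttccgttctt

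The promoters of the other called members, S100a11 and S100a16, are shown for comparison as the 250 bases before each RefSeq start (GRCm38.p6, plus strand). The letters searched, on both strands, were those of the TATA box, which is TATAAA here, of the CCAAT box by its name, of the GC box, written GGGCGG, and of the AP-1 core, written TGANTCA. Matches are in capitals. All 10 members had a promoter in the RefSeq table, and 6 held at least 1 match.
S100a11, chr3:93520246-93520495: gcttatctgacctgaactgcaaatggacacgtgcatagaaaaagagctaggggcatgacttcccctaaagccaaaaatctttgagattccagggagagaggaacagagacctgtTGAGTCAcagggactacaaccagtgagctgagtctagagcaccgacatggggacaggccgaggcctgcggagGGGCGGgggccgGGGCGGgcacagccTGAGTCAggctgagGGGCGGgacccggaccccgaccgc
S100a16, chr3:90537004-90537253: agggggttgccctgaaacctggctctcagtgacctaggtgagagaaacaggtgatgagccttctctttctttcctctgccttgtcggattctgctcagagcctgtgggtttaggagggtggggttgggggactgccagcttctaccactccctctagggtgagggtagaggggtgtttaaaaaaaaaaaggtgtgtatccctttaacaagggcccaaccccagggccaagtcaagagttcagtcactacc

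The S100a11 window held 3 GC boxes and 2 AP-1 cores, the latter beginning 136 and 38 bases before the start. The S100a16 window, the S100a13 window and the S100a1 window held none of the 4. Over windows of the same length for 27025 genes, 32.9% held a GC box, 6.87% an AP-1 core, 34.5% a CCAAT box and 13% a TATA box. A TATA box was found 31 and 30 bases before the starts of S100a4 and S100a8. These matches describe letters, and no binding was measured.

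S100a6, S100a4 and S100a3 did not pass the test. S100A6 (calcyclin) is induced as cells enter the cycle and binds annexins and the ubiquitin ligase adaptor CacyBP. S100a6 (ENSMUSG00000001025.8, chr3:90612882-90624181) had 229, 336 and 467 CPM in vehicle tumors 7, 8 and 9 and 336, 347 and 619 CPM in RGS tumors 10, 11 and 12. The groups overlapped, and the log2 fold change was 0.34 with a 95% interval from -0.17 to 0.84 (edgeR adjusted p = 0.303). A single tumor decided its side of the threshold: the estimate was 0.62 without vehicle tumor 9 (adjusted p = 0.0191) and -0.04 without RGS tumor 12 (adjusted p = 0.929). It was 0.11 without vehicle tumor 7 (adjusted p = 0.703) and 0.60 with the length offset (adjusted p = 0.0145).

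S100A4 (metastasin) binds non-muscle myosin IIA and is also used as a marker of fibroblasts. S100a4 (ENSMUSG00000001020.8, chr3:90603771-90606045) had 6.71, 13.1 and 22.6 CPM in vehicle tumors 7, 8 and 9 and 7.76, 20.9 and 13.6 CPM in RGS tumors 10, 11 and 12. The means were nearly equal, 14.1 ± 7.98 CPM with vehicle and 14.1 ± 6.61 CPM with RGS, but the spread within each group was wide. The log2 fold change was 0.00 with a 95% interval from -0.82 to 0.81 (edgeR adjusted p = 0.994), so changes within that range were not detectable with these tumors. It was 0.51 without vehicle tumor 9, -0.35 without vehicle tumor 7 and 0.76 with the length offset, none past the threshold (adjusted p = 0.34, 0.474 and 0.0943).

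S100A3 is a cysteine-rich member best known from the hair cuticle. S100a3 (ENSMUSG00000001021.12, chr3:90560578-90602702) had 7.59, 12.5 and 19.1 CPM in vehicle tumors 7, 8 and 9 and 4.45, 9.42 and 6.55 CPM in RGS tumors 10, 11 and 12. RGS tumor 11 was above vehicle tumor 7, and the log2 fold change of -0.94 ± 0.38 (SE) missed the threshold (edgeR adjusted p = 0.0625). It was -1.22 without vehicle tumor 7 (adjusted p = 0.0124), -1.26 without RGS tumor 11 (adjusted p = 0.0224) and -1.08 with library totals in place of TMM factors (adjusted p = 0.033), and it passed the test in each of these. It also passed with no filter beyond 1 count (-0.96, adjusted p = 0.0298) and without vehicle tumor 7 and RGS tumor 11 together (-1.52, adjusted p = 0.00122). In 15 of the 20 alternatives it missed the threshold. Without vehicle tumor 9 it was -0.56 (adjusted p = 0.344), and without RGS tumor 10 it was -0.72 (adjusted p = 0.196). With the length offset it was -0.92 (adjusted p = 0.0691), and DESeq2 and limma voom did not call it (adjusted p = 0.0628 and 0.106). Leaving out vehicle tumor 8 or RGS tumor 12 gave an edgeR adjusted p of 0.114 or 0.103. The span of S100a3 contains S100a2, which had 0 counts in every tumor. S100a3 and S100a4 each also overlap the gene model Gm42674 on the same strand, which had at most 39 counts in a tumor, and how reads in the shared stretch were assigned is not given in the sources used here.

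The members known from leukocytes were at trace levels. S100a8 (ENSMUSG00000056054.9, chr3:90668978-90670035) had 0, 8 and 12 counts in vehicle tumors 7, 8 and 9 and 10, 7 and 3 in RGS tumors 10, 11 and 12. Its log2 fold change was 0.57 with a 95% interval from -2.61 to 3.76 (edgeR adjusted p = 0.809), so a change was not detectable at this depth. S100a9 (ENSMUSG00000056071.12, chr3:90692632-90695721), the partner subunit of calprotectin, had 4 counts in vehicle tumor 7 and 0 in the other 5 tumors and was not tested. Neutrophil markers were as scarce. Of the 10 in the table, Csf3r, Cxcr2, Retnlg, Mmp8 and Ltf had 0 counts in every tumor, the most abundant was Ly6g with 8 counts in RGS tumor 12 alone, and the summed level was 0.0762 ± 0.0718 CPM with vehicle and 0.224 ± 0.389 CPM with RGS.

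S100b (ENSMUSG00000033208.7, chr10:76253853-76261159), the marker of melanocytic and Schwann cells and the only member outside chromosome 3, had 9 counts in vehicle tumor 8, 48 counts in RGS tumor 10 and 0 in the other 4 tumors, and did not pass the filter. It overlaps Dip2a on the opposite strand, a gene with between 1892 and 5248 counts a tumor. The strand setting of the counting is not given in the sources used here, so reads in the shared stretch cannot be told apart. The markers of a melanocytic tumor were largely absent. Of 7 melanocyte markers Dct, Tyr and Mlana had 0 counts in every tumor and Sox10 had 18 counts in RGS tumor 11 alone, while the most abundant, Mitf, had 5.46 ± 1.74 CPM with vehicle and 7.43 ± 2.97 CPM with RGS. The label of melanoma is taken from the cell line, and the identity of the tumors was not tested with these transcripts. Of the Schwann cell markers, Cdh19 and Gfra3 had 0 counts in every tumor. Mbp had 30, 24 and 29 counts in vehicle tumors 7, 8 and 9 and 0 in the RGS tumors (edgeR adjusted p = 0.0102).

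Signs of other host leukocytes were few. Of 12 macrophage markers Adgre1, C1qc, Fcgr1 and Ccr2 had 0 counts, and Cd68 carried nearly all of the summed level, 62.5 ± 3.21 CPM with vehicle and 74.6 ± 12.4 CPM with RGS. The other macrophage markers had at most 7 counts in a tumor. Of 6 T cell markers Cd3d, Cd3e, Cd3g and Cd8a had 0 counts, and the most abundant, Trac, had 0 counts in the vehicle tumors and 30, 16 and 10 in RGS tumors 10, 11 and 12 (edgeR adjusted p = 0.00592). Cd4, the remaining T cell marker, had 14 counts in vehicle tumor 9 and 0 in the other 5 tumors. Among cell types tied to single members, 10 fibroblast markers were led by Col1a2, with Lum at 0 counts. Their summed level was 486 ± 103 CPM with vehicle and 306 ± 14.9 CPM with RGS. Most of it came from Col1a2 (244 and 147 CPM) and Pdgfra (179.5 and 110.5 CPM), so the sum mainly reflects these 2 genes. Of the 8 fibroblast markers tested, 4 were lower and 1 higher in RGS tumors, against 16.5% and 16.3% of all tested genes. The higher gene, Dcn, had 1.14 ± 0.495 CPM with vehicle and 10.7 ± 4.61 CPM with RGS (edgeR adjusted p = 6.2e-05). The 7 skeletal muscle markers, led by Mylpf and with Ckm and Myh4 at 0 counts, summed to 9.561 ± 2.705 CPM with vehicle and 6.90 ± 1.59 CPM with RGS. Atp2a1, the only called gene among them, had 21, 10 and 31 counts in vehicle tumors 7, 8 and 9 and 1, 0 and 0 in RGS tumors 10, 11 and 12 (edgeR adjusted p = 0.0356). The 6 adipocyte markers, led by Fabp4 and with Plin1 and Lep at 0 counts, summed to 9.36 ± 2.56 and 11.8 ± 4.44 CPM, and the 6 endothelial markers, with Emcn at 0 counts, to 3.32 ± 0.803 and 9.95 ± 3.76 CPM. Vwf led this last list with vehicle and Cdh5 with RGS, and Cdh5, at a mean of 0.555 CPM with vehicle and 6.204 CPM with RGS, was its only called gene (edgeR adjusted p = 0.00064). Neutrophil, T cell, endothelial and most macrophage markers were thus scarce, while Cd68 and several fibroblast markers were not. The share of host cells was not measured. The part of these cells in the levels of S100 genes was not tested.

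Of the 8 other S100 genes looked up, 7 were in the table under the symbols searched, and 3 passed the filter. S100A7A (koebnerisin) is a member induced in inflamed skin. S100a7a had 4.88, 7.16 and 5.33 CPM in vehicle tumors 7, 8 and 9 and 2.04, 2.79 and 0.979 CPM in RGS tumors 10, 11 and 12, with no overlap. Its log2 fold change was -1.58 ± 0.54 (SE), edgeR adjusted p = 0.0303, and the call was lost without vehicle tumor 8 (-1.39, adjusted p = 0.166), without RGS tumor 12 (-1.29, adjusted p = 0.0617) and with the length offset (-1.31, adjusted p = 0.0647). S100a10, whose protein holds annexin A2 in a heterotetramer and is unusual in having lost calcium binding, had 260, 414 and 582 CPM in vehicle tumors 7, 8 and 9 and 275, 295 and 334 CPM in RGS tumors 10, 11 and 12. Vehicle tumor 7 lay below all RGS tumors and the other vehicle tumors above them, and the log2 fold change was -0.47 ± 0.21 (SE), edgeR adjusted p = 0.0953. It passed the test without tumor 7 (-0.73, adjusted p = 0.00024), with library totals only (-0.61, adjusted p = 0.0287) and with no filter beyond 1 count (-0.48, adjusted p = 0.0203). It was -0.16 without vehicle tumor 9 (adjusted p = 0.577) and -0.13 with the length offset (adjusted p = 0.561). By TPM, S100a10 was above S100a6 in each vehicle tumor and below it in each RGS tumor. S100a14 had 4, 24 and 16 counts in vehicle tumors 7, 8 and 9 and 3, 2 and 0 in RGS tumors 10, 11 and 12 and did not pass the test (edgeR adjusted p = 0.253). S100a5 and S100z had at most 3 and 2 counts in a tumor, and S100a2 and S100g had 0. The S100-fused genes of the outer epidermis, Crnn, Flg, Flg2, Hrnr, Rptn and Tchhl1, had 0 counts in every tumor, and Tchh had 4 counts in vehicle tumor 7, vehicle tumor 9 and RGS tumor 12.

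**Figure D2:**
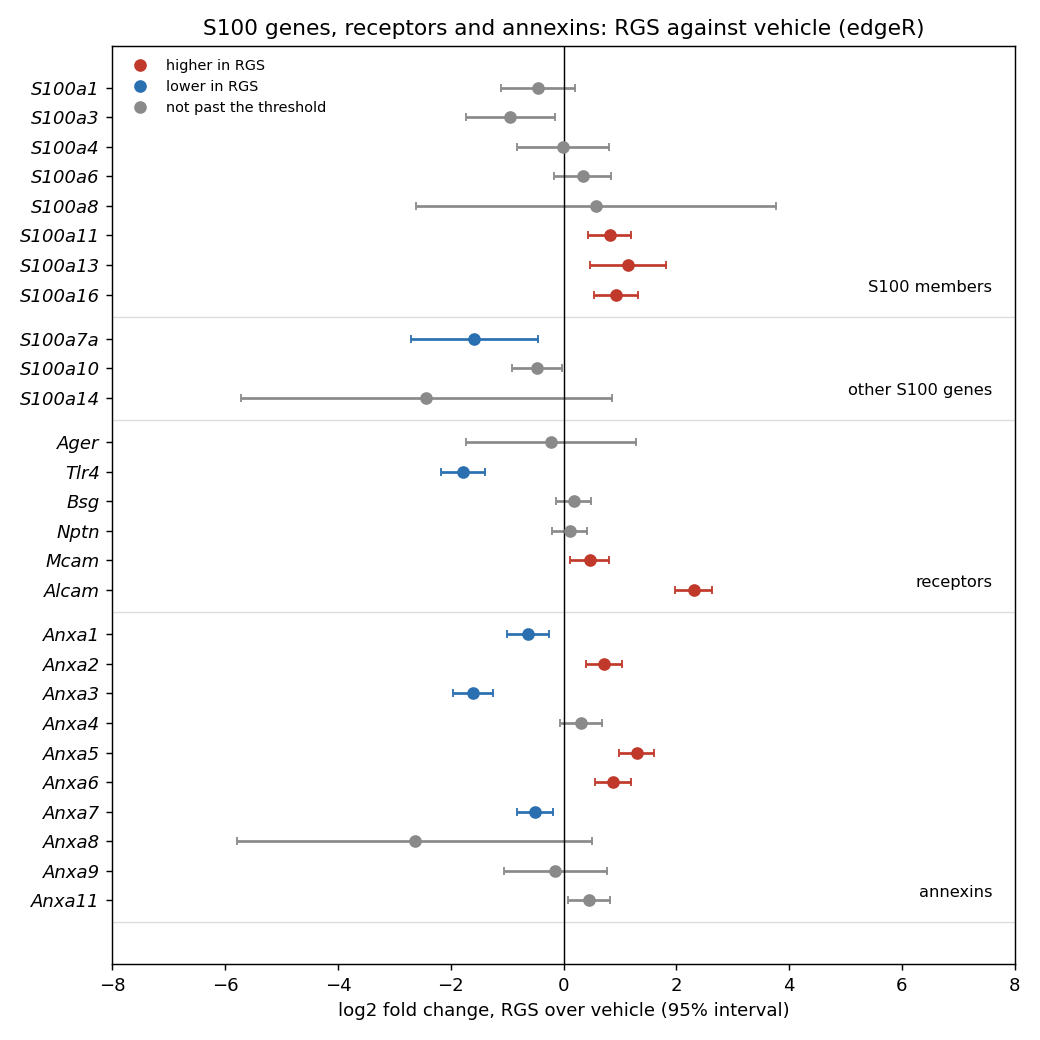
Log2 fold change of RGS over vehicle (horizontal axis) with its 95% interval for the tested S100 genes, receptors and annexins, from edgeR's fit over 3 tumors a group; red is higher and blue lower at an adjusted p under 0.05, grey is not past it. S100a11, S100a13 and S100a16 lie between 0.82 and 1.14, and Tlr4 and Alcam lie at -1.78 and 2.31.

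Among receptors that secreted S100 proteins can engage, there were calls in both directions. Of 7 receptors, 6 were tested, 2 were higher and 1 was lower in RGS tumors, with a median log2 fold change of 0.14. Over all tested genes 16.3% were called higher and 16.5% lower. Tlr4, the innate immune receptor of calprotectin and bacterial lipopolysaccharide, had 72.7, 76.5 and 81.4 CPM in vehicle tumors 7, 8 and 9 and 19.8, 25.6 and 21.7 CPM in RGS tumors 10, 11 and 12. These groups were far apart, with a log2 fold change of -1.78 ± 0.18 (SE), edgeR adjusted p = 6.8e-07. Alcam, an adhesion molecule of the immunoglobulin family, had 154, 133 and 126 CPM in vehicle tumors 7, 8 and 9 and 737, 646 and 660 CPM in RGS tumors 10, 11 and 12, a log2 fold change of 2.31 ± 0.16 (SE), edgeR adjusted p = 3.0e-09. Mcam, the melanoma cell adhesion molecule, had 51.6 ± 2.56 CPM with vehicle and 71.1 ± 3.52 CPM with RGS. Its log2 fold change of 0.46 (edgeR adjusted p = 0.0372) was not called without vehicle tumor 8 or 9 or any 1 of the RGS tumors, where the adjusted p reached 0.138, nor with library totals only (adjusted p = 0.167), after thinning to the smallest library (adjusted p = 0.0755) or with no filter beyond 1 count (adjusted p = 0.0589). Ager, which encodes RAGE, the receptor most often named for S100 proteins, had only 39, 45 and 108 counts in vehicle tumors 7, 8 and 9 and 36, 30 and 38 in RGS tumors 10, 11 and 12, and its log2 fold change was -0.22 with a 95% interval from -1.74 to 1.29. Bsg and Nptn, which encode basigin and neuroplastin, had log2 fold changes of 0.18 and 0.11 (edgeR adjusted p = 0.396 and 0.629), and Bsg passed the test with the length offset (0.34, adjusted p = 0.0402). Cd36 had 0 counts in every tumor.

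Annexins are calcium-dependent membrane-binding proteins of which several pair with an S100 dimer. Of 12 annexins, 10 were tested, 3 were higher and 3 lower in RGS tumors, and the median log2 fold change was 0.08. For all tested genes the shares called higher and lower were 16.3% and 16.5%. Anxa5 (1.30), Anxa6 (0.88) and Anxa2 (0.72) were higher and Anxa3 (-1.61), Anxa1 (-0.64) and Anxa7 (-0.51) lower on the log2 scale, with edgeR adjusted p between 9.0e-07 for Anxa3 and 0.0159 for Anxa7. Anxa1 was not called without RGS tumor 10 (adjusted p = 0.0751), and Anxa7 was not called without vehicle tumor 8 or 9 or RGS tumor 10 or 11, where its adjusted p lay between 0.0531 and 0.0933. For the pair of S100A11 and annexin A1 the transcripts went in opposite directions. Anxa1 had 1086, 1611 and 1780 CPM in vehicle tumors 7, 8 and 9 and 819, 1052 and 1009 CPM in RGS tumors 10, 11 and 12, while S100a11 rose. The count ratio of S100a11 to Anxa1 was 0.218, 0.168 and 0.177 in vehicle tumors 7, 8 and 9 and 0.466, 0.417 and 0.623 in RGS tumors 10, 11 and 12. Anxa2 had 886 ± 54.4 CPM with vehicle and 1457 ± 231 CPM with RGS, and the count ratio of S100a10 to Anxa2 was 0.316, 0.452 and 0.633 in vehicle tumors 7, 8 and 9 and 0.220, 0.209 and 0.196 in RGS tumors 10, 11 and 12. In the RGS tumors the first ratio always exceeded its vehicle values, and the second always lay under them. The ratio of S100a11 to S100a10 was also computed and was higher in every RGS tumor. That of S100a6 to S100a4 overlapped between the groups. It was 34.08, 25.68 and 20.68 in vehicle tumors 7, 8 and 9 and 43.25, 16.56 and 45.59 in RGS tumors 10, 11 and 12. The ratios were chosen after the values were seen and were not tested.

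**Figure D3:**
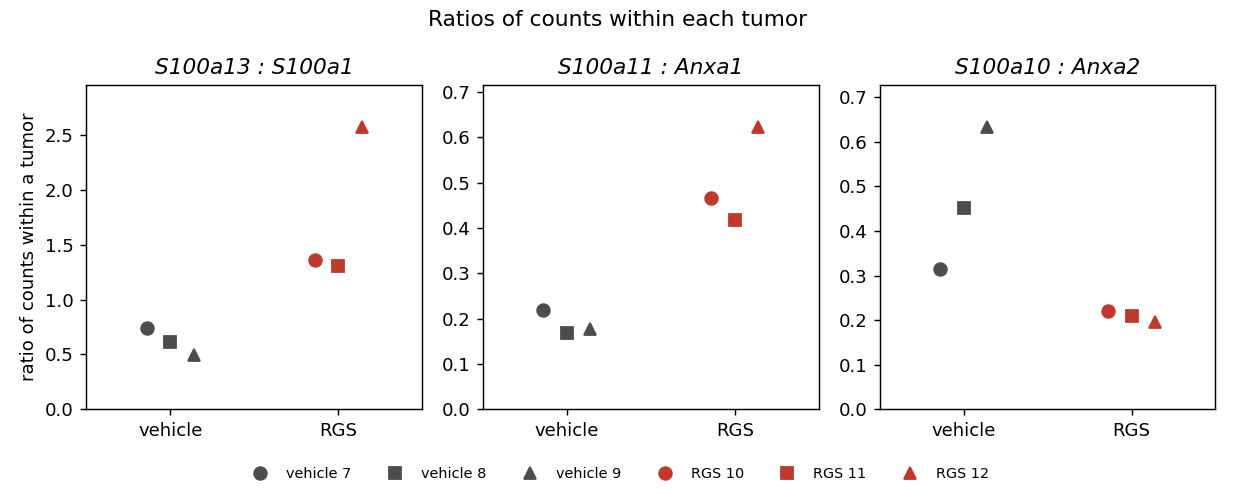
Ratio of counts within each tumor (vertical axes from 0) for S100a13 to its divergent neighbour S100a1, S100a11 to Anxa1, and S100a10 to Anxa2, in 3 vehicle (grey) and 3 RGS (red) tumors. The first ratio is at most 0.737 with vehicle and at least 1.31 with RGS, and the ratio of S100a10 to Anxa2 is at least 0.316 with vehicle and at most 0.220 with RGS.

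Of 15 intracellular partners of S100 proteins, 14 were tested, 4 were higher and 5 lower in RGS tumors, and the median log2 fold change was -0.31. The shares called over all tested genes were 16.3% and 16.5%. Ahnak, a giant scaffold protein bound by the S100A10 and annexin A2 complex, had 788 ± 114 CPM with vehicle and 259 ± 35.2 CPM with RGS (log2 fold change -1.60 ± 0.16 (SE), edgeR adjusted p = 6.8e-07). Cacybp, named for its binding to calcyclin, had 264 ± 61.6 CPM with vehicle and 136 ± 3.44 CPM with RGS (log2 fold change -0.96, edgeR adjusted p = 0.00029). Mdm2 and Mdm4, the p53 inhibitors that several S100 proteins bind, were lower by log2 fold changes of -1.12 and -1.07, and Trp53 was higher by 0.51 (edgeR adjusted p = 1.9e-05, 0.00016 and 0.0157). The Trp53 call was lost without vehicle tumor 8, vehicle tumor 9 or RGS tumor 12, with adjusted p between 0.0662 and 0.0705, and with library totals only (adjusted p = 0.0902). Stk38l, a kinase related to the S100B target STK38, and Ppp5c, a phosphatase activated by S100 proteins, were higher by 0.89 and 0.73 (edgeR adjusted p = 0.00063 and 0.00329).

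The cargo and partner of S100A13 in secretion were at low counts. Il1a had 2, 1 and 2 counts in vehicle tumors 7, 8 and 9 and 14, 26 and 32 in RGS tumors 10, 11 and 12 (edgeR adjusted p = 0.0158). Syt1, whose product synaptotagmin forms part of the same release complex, had 41, 17 and 41 counts in vehicle tumors 7, 8 and 9 and 2, 0 and 0 in RGS tumors 10, 11 and 12 (edgeR adjusted p = 0.0256). Fgf1 had 26 counts in vehicle tumor 7, 46 in RGS tumor 12 and at most 1 in each other tumor, and was not tested. The groups did not overlap for Il1a or Syt1, which also held for 45.8% of all tested genes. Both genes are among the called partners counted above and passed the filter only through the group where they were high. Their separation is therefore not independent of the filter. Il1a lost its call without vehicle tumor 7 or 8 or RGS tumor 11 or 12, and Syt1 without any single vehicle tumor or without RGS tumor 11 or 12, with adjusted p of at most 0.0941 and 0.124.

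All S100a genes of the table lie on chromosome 3, in a stretch of 3054 kb (chr3:90511034-93564643) that also holds the epidermal differentiation complex, a block of genes for the cornified layer of skin. Of its 109 genes, 22 were tested, of which 7 were higher and 2 lower in RGS tumors, against 16.3% and 16.5% of all tested genes. Among the 11 tested S100 genes 3 were higher and 1 lower, and among the 11 other tested genes 4 were higher and 1 lower. Of these called genes, Ivl, Sprr2f, Sprr2i and Crct1 passed the filter only through the group where they were high. Their calls are therefore not independent of the filter. Calls differed between neighbours, as S100a14, which lies between S100a13 and S100a16, and S100a10, the S100 gene nearest to S100a11, were not called. Among the other genes was Sprr1a, which encodes a cornified envelope precursor and had 45, 18 and 22 counts in vehicle tumors 7, 8 and 9 and 954, 618 and 884 in RGS tumors 10, 11 and 12 (log2 fold change 5.64 ± 0.29 (SE), edgeR adjusted p = 9.3e-11). Ivl, for involucrin, had 0 counts in the vehicle tumors and 124, 151 and 321 in RGS tumors 10, 11 and 12 (edgeR adjusted p = 1.5e-07). Sprr2f and Sprr2i had 0 counts in the vehicle tumors and in RGS tumor 11, and at most 18 and 28 in the other RGS tumors. Crct1 had 4, 16 and 13 counts in vehicle tumors 7, 8 and 9 and 0 in the RGS tumors (edgeR adjusted p = 0.0451).

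Markers of keratinocytes were mostly absent or scarce. Of 13 keratinocyte markers Krt1, Krt6a, Dsg3 and Trp63 had 0 counts in every tumor, Krt5 and Krt14 had at most 2 and 1, and the summed level of the list, 1.85 ± 0.684 CPM with vehicle and 17.3 ± 9.35 CPM with RGS, was led by Krt10 with vehicle and by Ivl with RGS. Krt10 had between 14 and 38 counts and Sbsn between 6 and 36 in every tumor, neither past the threshold (edgeR adjusted p = 0.634 and 0.651), and Lor had 30 counts in RGS tumor 12 and at most 1 in each other tumor. Krt16 had 0 counts in the vehicle tumors and 21, 8 and 37 in RGS tumors 10, 11 and 12 (edgeR adjusted p = 0.00473). Sprr1a, Sprr2f, Sprr2i and Crct1 were named after their values were seen.

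**Figure D4:**
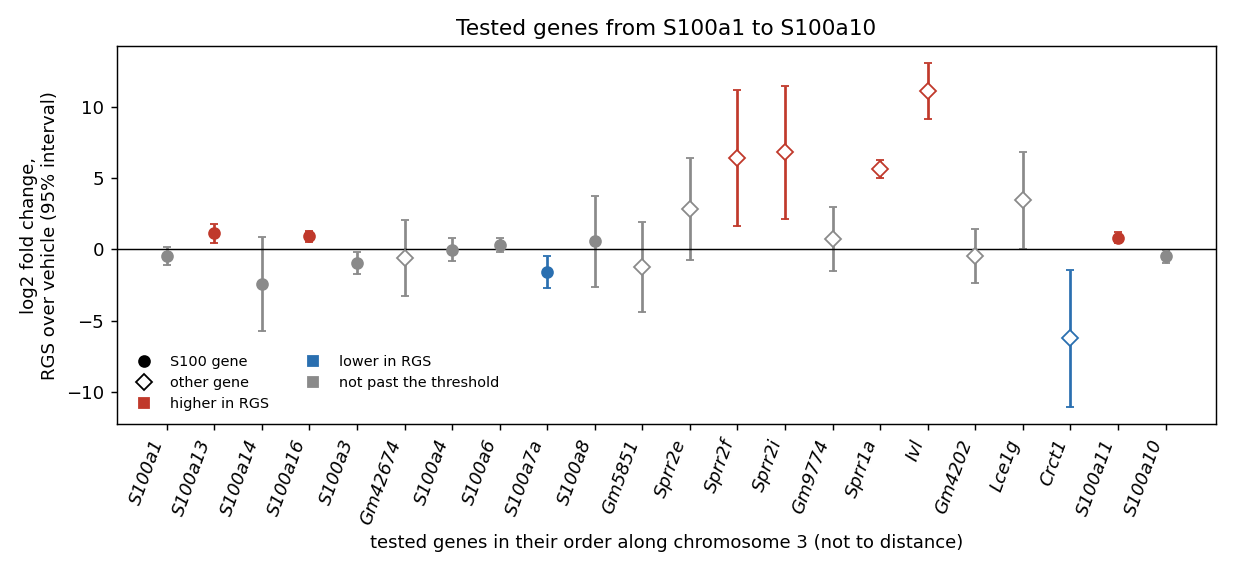
Log2 fold change of RGS over vehicle (vertical axis) with its 95% interval for the 22 tested genes from S100a1 to S100a10, in their order along chromosome 3 and not to distance; circles are S100 genes, diamonds other genes, red higher, blue lower and grey not past an edgeR adjusted p of 0.05. S100a13 is the highest S100 gene at 1.14, while Sprr1a is at 5.64; the plotted folds of S100a14, Ivl, Sprr2f, Sprr2i and Crct1, with at most 3 counts in every tumor of 1 group, depend on the prior count of the fit.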

How the data were processed

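The authors deposited raw counts per gene for 6 tumors, with gene lengths and positions; the submitters' processing notes name cutadapt 1.18, FastQC 0.11.7, STAR 2.7.1a, featureCounts 1.6.4 and mm10. Strand and multi-mapping settings are not given in the sources used here. CPM (edgeR's cpm on TMM-scaled libraries) and TPM (from counts and the table's gene lengths) came from these counts. The tests used edgeR 4.0.16 under R 4.3.3 (quasi-likelihood F test, Benjamini-Hochberg over the 15355 genes whose median reached 5 counts in either group, threshold adjusted p under 0.05). Ivl, Krt16, Trac, Il1a, Sprr2f, Sprr2i, Mbp, Syt1, Atp2a1 and Crct1 passed the filter only through the group where they were high. The SE is the log2 fold change over the square root of F. Alternatives used DESeq2 1.42.0, limma 3.58.1 and other factors, filters, thresholds and tumors. Between any 2 libraries of a group the chi-square per degree of freedom, taken against counting error alone, was at least 19.7. Tumors are separate samples of a group by the labels, which say nothing further of their independence.

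The members and all lists were chosen with earlier results of these data known. Named genes are all S100 and S100-fused genes, receptors, the called genes of the annexin and partner lists (at most 6 in each direction), the genes at 0 of each cell type list and the most abundant gene of most of them, and genes overlapping a member. Fgf1, Mbp, Sox10, Cd4, Pdgfra, Dcn, Krt5, Krt10, Krt14, Krt16, Lor, Sbsn, Vwf, Atp2a1, Sprr1a, Sprr2f, Sprr2i and Crct1 were chosen after their values were seen. A planned ranking of genes by likeness to S100a8 and S100a9 was left out, since these had at most 12 and 4 counts.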

Additional observations from a re-analysis of the deposited data

How the results depend on the processing

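S100a11 and S100a16 kept their direction and passed the threshold in every alternative except where a log2 fold change of 1 or more in size was required, and S100a13 in all but an adjusted p under 0.01 and the leaving out of RGS tumor 12. In all, 18 alternatives were planned and 2, the length offset and leaving out vehicle tumor 7 with RGS tumor 11, were added after seeing the data. The number of members higher in RGS tumors was 3, between 2 and 4 with 1 tumor left out, 4 with the length offset, 2 at an adjusted p under 0.01, and 1 under that requirement. The number lower was 0, between 0 and 1 with 1 tumor left out, and 1 (S100a3) with library totals only, with no filter beyond 1 count and without vehicle tumor 7 and RGS tumor 11.

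Over all tested genes, an adjusted p under 0.01 gave 1607 higher and 1562 lower genes, and the required size gave 1168 and 1450. Library totals only gave 1870 higher and 3152 lower genes (37.2% higher, against 49.7%) and moved the median log2 fold change of all genes from -0.05 to -0.19, and the length offset moved it to 0.06. With 1 tumor left out, higher genes numbered between 1776 and 2698 and lower genes between 1717 and 2551. Receptors higher in RGS numbered 1 with library totals only and between 1 and 2 with 1 tumor left out, lower annexins between 1 and 3, and higher partners between 2 and 4.

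Among the 36 genes run under the alternatives, signs changed only for genes not past the threshold, and the causes were not tested. S100a4 was at 0.00408 with DESeq2, 0.0522 with limma voom, 0.00305 with RLE factors, 0.0137 after thinning, 0.76 with the length offset, -0.742 without vehicle tumor 7 and RGS tumor 11, and between -0.41 and 0.51 with 1 tumor left out. S100a1 was at 0.18 with the length offset. S100a6 lay between -0.0356 and 0.62, S100a8 between -0.02 and 1.46 and Ager between -0.58 and 0.63 with 1 tumor left out. S100a8 was at -0.27 without vehicle tumor 7 and RGS tumor 11, Ager at -0.631 there and 0.14 with limma voom, and Nptn at -0.0357 with library totals only. With 1 tumor left out Bsg lay between 0.06 and 0.24 and Nptn between 0.00 and 0.15.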
